A study of Rattus norvegicus with 8 samples.

Results

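The nuclear-encoded subunits of the mitochondrial respiratory chain were followed in mature hepatocytes (MHs), in small hepatocyte-like progenitor cells (SHPCs) of control livers, and in SHPCs of livers that had received bone marrow-derived mesenchymal cells (BM-MCs). The members were all non-control probes of the array whose gene name begins with Nduf followed by a, b, c, s or v and a digit, with Uqcr, with Atp5, or with Cox, a digit from 4 to 8 and a letter, together with the probes named Sdha, Sdhb, Sdhc and Sdhd. This gave 109 probes for 82 gene names, out of 45598 probes for 36174 gene names on the array. By complex there were 36 genes of complex I, 4 of complex II, 8 of complex III, 17 of complex IV and 17 of complex V. Ndufa4 is counted with complex I by its name, although it is known as a subunit of complex IV. Cox6c-ps1 is a pseudogene, Cox7a2l is a factor of respiratory supercomplexes, and Atp5s and Atp5sl are not subunits proper. In the current rat annotation 81 of the 82 names could be matched, and 16 of them, all of complex V, have a new symbol such as Atp5f1a for Atp5a1.

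The respiratory chain lies in the inner mitochondrial membrane. Complex I takes electrons from NADH and complex II takes them from succinate, complex III passes them to cytochrome c, complex IV hands them to oxygen, and the proton gradient that builds up drives complex V, the ATP synthase. Hepatocytes are rich in mitochondria, and most subunits are encoded in the nucleus while a smaller set is encoded in mitochondrial DNA, for which no probe was found here under the names searched.

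All 8 samples were cut from frozen liver sections of F344 rats by laser microdissection (LMD), after retrorsine, which blocks the division of resident hepatocytes, and partial hepatectomy. The 2 MH samples and the 3 control SHPC samples came from recipient control livers without BM-MCs, and the other 3 SHPC samples came from livers into which BM-MCs had been transplanted through the spleen. The strain is labelled DPPIV+, but according to the methods the recipients were DPPIV-negative females and only the BM-MC donors were DPPIV+. The age of the recipients was not given in the sources used here, and which animal each sample came from is not stated, so that p-values reflect sample-to-sample spread alone and this could be technical. Levels are log2 signals relative to the 75th percentile of the same array, and a difference of 1 is 2-fold. All arrays lay on 1 slide. Its first set of arrays holds both MH samples with control replicates 1 and 2, and its second set holds the BM-MC samples with control replicate 3. The share of spots above background ran from 57.0% to 61.5%. In captured tissue, fewer cells of a type and less RNA per cell cannot be told apart.

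The probes were 60 bases long. The probe of Uqcrh, the hinge protein of complex III, is shown because it had the lowest adjusted p of all members, and the array's annotation places it at chr5:136260836-136260895 on the plus strand, starting at base 195 of the transcript.
Uqcrh: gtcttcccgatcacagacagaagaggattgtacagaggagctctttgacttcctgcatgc
The only measurable probe of the pseudogene Cox6c-ps1 is shown beside a probe of its parent gene Cox6c, a subunit of complex IV, with the bases that differ in capitals. They lie at chr19:54398139-54398198 and chr7:71474397-71474456, both on the minus strand, and 51 of the 58 bases that can be set against each other are identical.
Cox6c: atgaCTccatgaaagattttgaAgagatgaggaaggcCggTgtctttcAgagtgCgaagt
Cox6c-ps1: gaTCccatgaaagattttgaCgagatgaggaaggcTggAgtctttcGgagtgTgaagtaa
Both probes of Atp5h, a subunit of the stalk of the ATP synthase, are shown because they share 42 bases, given in capitals.
Atp5h first probe: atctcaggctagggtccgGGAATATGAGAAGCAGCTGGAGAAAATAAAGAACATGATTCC
Atp5h second probe: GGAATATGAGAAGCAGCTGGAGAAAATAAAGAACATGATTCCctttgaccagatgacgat
The scanner header names rn4 as the genome build of the array's annotation, and whether these positions are on that build was not tested. For Uqcrh the strand given by the array differs from that of the gene in GRCr8, the current rat build, and the reason was not tested. The Atp5h probes start at bases 372 and 390 of the transcript.

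Of the 109 probes, 99 for 76 genes passed the filter of 3 of the 7 arrays with complete background marks and were tested, and all 99 were marked as well above background on all 7. The signals were strong, with 75 of the 99 probes among the 2312 brightest of the 23111 probes tested. The median SD within groups was 0.136 over the member probes and 0.214 over all tested probes, and the part of signal strength in this was not tested. Below, a gene is given by its brightest tested probe.

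Most respiratory chain genes lay below control SHPCs both in MHs and in SHPCs with BM-MCs, by a small amount, and no single gene passed the test. The median log2 fold change of the 76 genes was -0.27 in MHs against control SHPCs, where the median of all tested probes was 0.03, and 72 of the 76 genes were below 0. It was -0.21 in SHPCs with BM-MCs against control SHPCs, where the median of all tested probes was 0.02, and 73 genes were below 0. Both comparisons use the same 3 control samples, so that neither is independent of the other. Between SHPCs with BM-MCs and MHs the median was 0.08, against 0.00 over all tested probes, with 58 genes above 0, but it turned to -0.053 with the array set as a block.

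Set against the mean of control SHPCs, the median over the 76 genes was -0.07, -0.03 and 0.10 in control SHPC replicates 1, 2 and 3. It was -0.32, -0.20 and -0.09 in SHPCs with BM-MCs replicates 1, 2 and 3, and -0.21 and -0.38 in the MH samples. Every MH sample and every BM-MC sample was thus below every control, but BM-MC replicate 3 was only just below control replicate 1. Over all tested probes the same medians ran from -0.02 to 0.04.

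**Figure D1:**
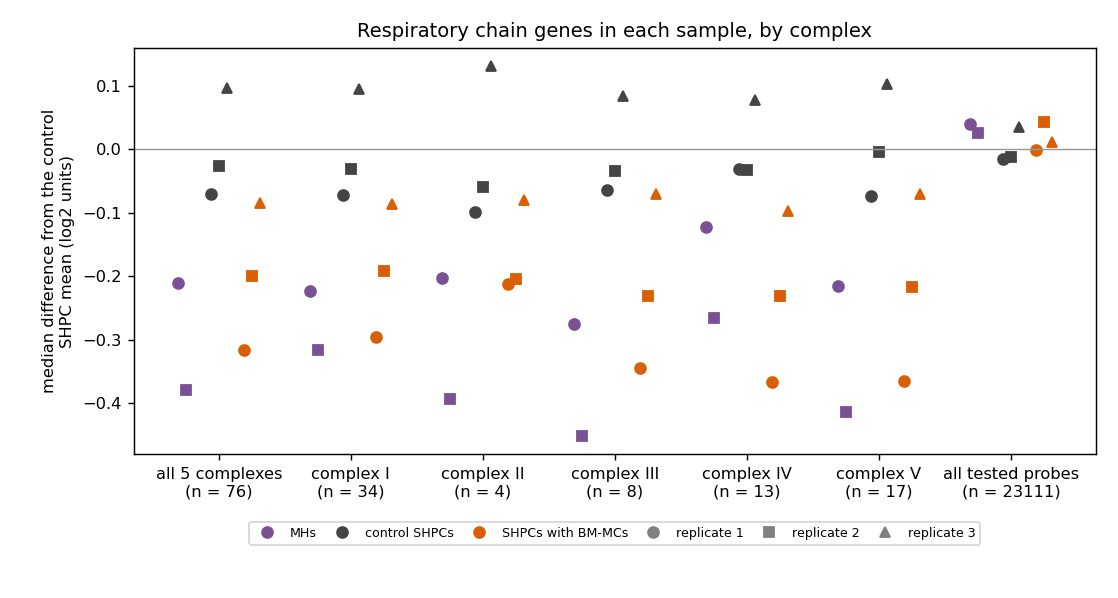
Median difference from the control SHPC mean (log2 units, y axis) over the respiratory chain genes, over each complex and over all tested probes (x axis), with 1 point per sample, coloured by group and shaped by replicate number. Over the 76 genes together the controls sit between -0.07 and 0.10, the MHs at -0.21 and -0.38 and the BM-MC samples between -0.32 and -0.09, while all samples lie between -0.02 and 0.04 over all tested probes. In complexes II and V the highest BM-MC sample lies above the lowest control.

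In MHs against control SHPCs, limma with Benjamini-Hochberg adjustment over all 23111 probes called 0 of the 99 member probes, where it called 0.216% of all tested probes higher and 0.917% lower. At an unadjusted p under 0.05, limma had 37 of the 99 member probes lower and 0 higher, beside 8.21% lower and 11.0% higher of all tested probes. Both MH samples were below all 3 controls for 65 member probes, and above all of them for 0, beside 18.7% and 22.7% of all tested probes. In the first set of arrays alone, which holds both MHs and 2 controls, the median of the 76 genes was -0.23.

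In SHPCs with BM-MCs against control SHPCs, limma again called 0 of the 99 member probes at an adjusted p under 0.05, beside 0.0216% higher and 0% lower of all tested probes. At an unadjusted p under 0.05, limma had 9 member probes lower and 0 higher, beside 5.92% lower and 10.7% higher of all tested probes. All 3 BM-MC samples were below all 3 controls for 43 member probes, and above them for 0, beside 11.7% and 13.1% of all tested probes. The methods' t-test without adjustment had 18 of the 99 member probes lower and 0 higher, beside 6.82% lower and 8.12% higher of all tested probes, and after Benjamini-Hochberg adjustment it gave 0 member probes. In the second set of arrays alone, which holds the 3 BM-MC samples and 1 control, the median was -0.29.

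In SHPCs with BM-MCs against MHs, limma called 0 of the 99 member probes, beside 0.320% higher and 0.0173% lower of all tested probes, and at an unadjusted p under 0.05 it had 2 member probes higher and 1 lower, beside 7.33% higher and 5.95% lower of all tested probes. The member genes move together from sample to sample, so that their number does not count as replication.

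The medians with BM-MCs moved with the choice of scaling. Scaling to the median of each array moved the median of all tested probes in SHPCs with BM-MCs against control SHPCs from 0.02 to -0.17, and that of the member genes from -0.21 to -0.41. A scaling by a constant shifts all probes of an array alike, so the distance of the members from all probes, 0.23, is fixed under it. Quantile normalization brought the members to -0.09, which was 0.07 below all probes, with 63 of 76 genes below 0. Without scaling, the BM-MC samples were below all controls for 20 member probes beside 3.87% of all tested probes, and with scaling to the median for 88 beside 26.6%. Without scaling, both MHs were below all controls for 40 member probes beside 8.93%. For MHs against control SHPCs the median of the members moved less, from -0.27 to -0.26 with scaling to the median, -0.21 with quantile normalization and -0.18 without scaling. The members lay 0.30 below all probes there and, with quantile normalization, 0.26 below them. In SHPCs with BM-MCs against MHs, scaling to the median put the members at -0.11 and all tested probes at -0.19, and quantile normalization put them at 0.12 and -0.06, a distance of 0.18 in place of 0.08. Without scaling the members were at 0.0044, with 37 of the 76 genes below 0.

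Strong signals as a whole lay slightly below 0. The median of the 2312 brightest tested probes was -0.09 in SHPCs with BM-MCs against control SHPCs and -0.07 in MHs against control SHPCs, with 68.1% and 58.4% of them below 0. The 75 member probes among them had medians of -0.21 and -0.27, and the other 24 member probes had medians of -0.19 and -0.18. The part of signal strength in these differences was not tested.

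**Figure D2:**
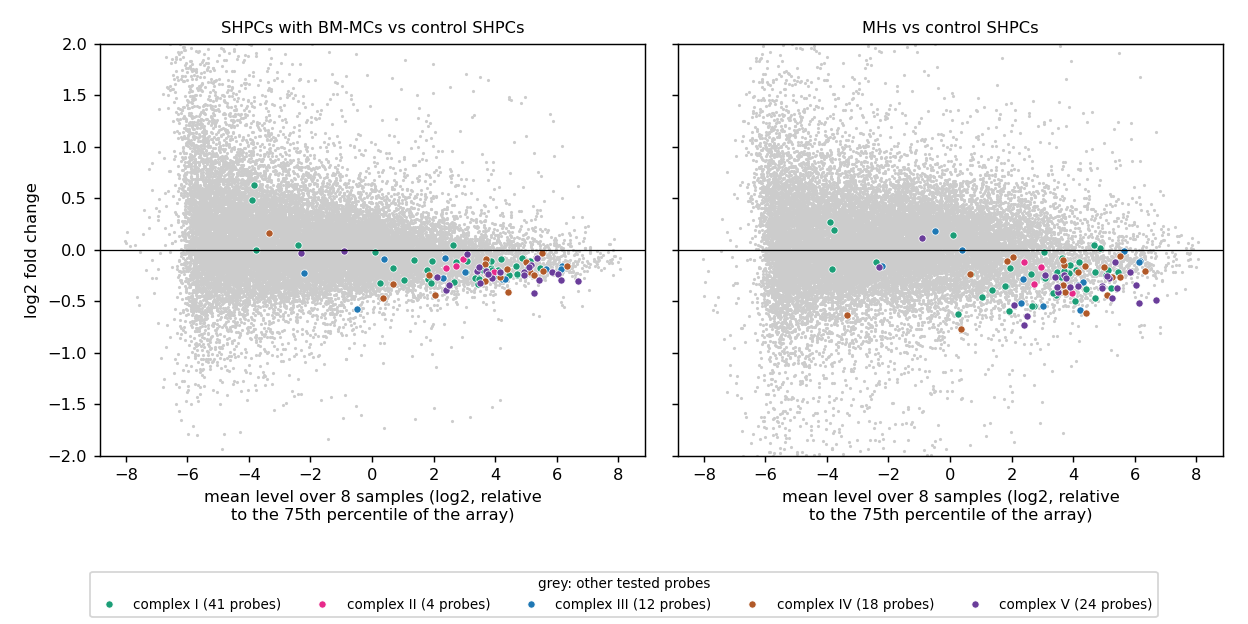
Log2 fold change (y axis) against the mean level over the 8 samples (x axis, log2 relative to the 75th percentile of the array) for SHPCs with BM-MCs (left) and MHs (right) against control SHPCs, with 1 point per tested probe, in grey for other probes and in colour for the 5 complexes. Most coloured points lie at strong signals and below 0, and 103 and 230 tested probes lie outside the plotted range of 2 in either direction.

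The counts of genes below 0 given here by complex move by a few genes with 1 sample left out. Over the 76 genes the count in MHs was 72, and from 66 without MH replicate 2 to 74 without MH replicate 1, and with BM-MCs it was 73, and from 67 without control replicate 3 to 74. In complex I, 31 of 34 genes were below 0 in MHs against control SHPCs, with a median of -0.23, and 31 were below 0 with BM-MCs, with a median of -0.19. Ndufs1, the largest iron-sulfur subunit of the core, was at 2.01, 2.12 and 2.45 in control SHPCs, at 1.81, 1.77 and 2.03 with BM-MCs, and at 1.61 and 1.59 in MHs. Both MHs were below all controls, while BM-MC replicate 3 overlapped them. The log2 fold change was -0.60 (SE, the standard error, 0.16) in MHs, with a limma adjusted p = 0.14, and -0.33 (SE 0.16) with BM-MCs, with a limma adjusted p = 0.35, which was -0.20 without control replicate 3. Ndufs8, another iron-sulfur subunit, had the lowest log2 fold change of complex I in MHs, -0.63 (SE 0.19, limma adjusted p = 0.16). It was at 0.43, 0.38 and 0.76 in controls, at 0.09, -0.01 and 0.51 with BM-MCs and at -0.04 and -0.17 in MHs, so that the MHs were below all controls and BM-MC replicate 3 overlapped them.

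Other core subunits of complex I were spread between these values and 0. In MHs the log2 fold change was -0.54 for Ndufs3, -0.50 for Ndufv2, -0.23 for Ndufs7 and -0.21 for Ndufv1, which binds NADH. None of them passed the test. The last 2 rest on single samples, since without MH replicate 2 Ndufs7 was at -0.084 and Ndufv1 at 0.023, and without MH replicate 1 they were at -0.38 and -0.44. Without control replicate 3 they were at -0.11 and -0.13. Among 19 core subunits of the 5 complexes, Ndufs7 alone had a higher mean with BM-MCs, 2.73 ± 0.15 against 2.68 ± 0.22 in controls (SD, n = 3 each), which is less than the spread.

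Accessory subunits held the lowest and the highest log2 fold change of complex I with BM-MCs. Ndufb5, a membrane-arm subunit, was at 3.25, 3.28 and 3.51 with BM-MCs, at 3.59, 3.63 and 3.82 in controls and at 3.23 and 3.25 in MHs. All BM-MC and MH samples were below all controls, with a log2 fold change of -0.33 with BM-MCs (SE 0.13, limma adjusted p = 0.28) and -0.44 in MHs (limma adjusted p = 0.16). Ndufc1 had the highest, 0.63 (SE 0.49, limma adjusted p = 0.53), at a faint signal with levels in controls of -4.70, -4.52 and -2.89 and in BM-MC samples of -3.37, -3.13 and -3.72. Its groups overlapped, in the second set of arrays alone its log2 fold change was -0.52, and with 1 control left out it ran from 0.30 to 1.21. Ndufa10 had the highest log2 fold change of complex I in MHs, 0.26 (SE 0.34, limma adjusted p = 0.70), and it was -0.22 without MH replicate 2 and 0.75 without MH replicate 1. Ndufa4 had a log2 fold change of -0.47 in MHs (limma adjusted p = 0.17). Ndufs5 had the lowest log2 fold change of complex I in SHPCs with BM-MCs against MHs, -0.20 (limma adjusted p = 0.48), which was -0.12 without MH replicate 1.

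In complex II all 4 genes were below 0 in both comparisons, with medians of -0.25 in MHs and -0.17 with BM-MCs. Without MH replicate 1 the median in MHs was -0.39, and without control replicate 3 that with BM-MCs was -0.099. Sdhd, a membrane anchor, had the lowest log2 fold change in both comparisons. Its level was at 4.03, 4.11 and 4.29 in controls, at 3.79, 4.03 and 3.95 with BM-MCs and at 3.74 and 3.71 in MHs. Both MHs lay below all controls and BM-MC replicate 2 overlapped them, with a log2 fold change of -0.42 (SE 0.13, limma adjusted p = 0.18), and with BM-MCs it was -0.22 (limma adjusted p = 0.42), or -0.15 without control replicate 3. The log2 fold change in MHs was -0.33 for Sdha, the flavoprotein that oxidises succinate, -0.17 for Sdhb, the iron-sulfur subunit, and -0.12 for Sdhc, the other anchor. Without MH replicate 2 these were -0.19, 0.011 and -0.21, and without MH replicate 1 Sdhb was at -0.36 and Sdhc at -0.021. Sdhb was nearest to the controls with BM-MCs, 2.95 ± 0.16 against 3.04 ± 0.10 (SD, n = 3 each).

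In complex III all 8 genes were below 0 in both comparisons, with medians of -0.33 in MHs and -0.23 with BM-MCs. Uqcrh was at 4.47, 4.43 and 4.52 in controls, at 4.10, 4.13 and 4.33 with BM-MCs and at 3.90 and 3.88 in MHs. The 3 groups did not overlap, and the spread within controls was small. The log2 fold change was -0.58 in MHs (SE 0.12, limma adjusted p = 0.081), and it passed in 2 of the alternatives, with an intensity trend (limma adjusted p = 0.021) and with array weights (limma adjusted p = 0.048). With BM-MCs it was -0.29 (SE 0.11, limma adjusted p = 0.29).

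Uqcrfs1, the Rieske iron-sulfur protein, was at 3.07, 3.18 and 3.51 in controls, at 2.95, 2.98 and 3.18 with BM-MCs and at 2.71 and 2.70 in MHs. Its log2 fold change was -0.55 in MHs (SE 0.16, limma adjusted p = 0.15), below all controls, and -0.22 with BM-MCs, where the groups overlapped and where it was -0.090 without control replicate 3. In MHs the log2 fold change was -0.52 for the core protein Uqcrc2 and -0.28 for Uqcrc1, which ran from -0.51 to -0.06 with 1 MH sample left out and was -0.15 without control replicate 3. Uqcrc1 was nearest to the controls with BM-MCs, 2.38 ± 0.14 against 2.47 ± 0.26 (SD, n = 3 each). Uqcr10, a small subunit, had the highest log2 fold change of complex III in MHs, -0.11 (limma adjusted p = 0.66), with -0.18 and -0.037 when 1 MH sample was left out.

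In complex IV all 13 tested genes were below 0 in both comparisons, with medians of -0.22 in MHs and -0.24 with BM-MCs. Without MH replicate 2 it was 11 of 13 in MHs, with a median of -0.12. Cox7b, a small membrane subunit, was at 4.70, 4.64 and 4.83 in controls, at 4.14, 4.17 and 4.62 with BM-MCs and at 4.12 and 4.09 in MHs. All BM-MC and MH samples were below all controls, with BM-MC replicate 3 near them. The log2 fold change was -0.61 in MHs (SE 0.17, limma adjusted p = 0.14) and -0.41 with BM-MCs (SE 0.16, limma adjusted p = 0.28). Cox5a and Cox5b, which are present as single forms, had log2 fold changes of -0.22 and -0.44 in MHs and of -0.27 and -0.22 with BM-MCs. Their second probes reversed the order in MHs, with -0.41 for Cox5a and -0.16 for Cox5b. Without MH replicate 2 Cox5b was at -0.24. The probe of the pseudogene Cox6c-ps1 had the lowest log2 fold change of complex IV in both, -0.77 in MHs (SE 0.32) and -0.47 with BM-MCs (SE 0.26). Both MHs were below all controls, while BM-MC replicate 3 overlapped them. It was -0.42 in MHs without MH replicate 2, and with BM-MCs -0.24 without BM-MC replicate 2 and -0.29 without control replicate 3. The share of Cox6c transcript in this signal was not tested.

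Several subunits of complex IV have isoforms with known preferences for tissues. Cox4i1, the common form of subunit 4, was at 5.58, 5.42 and 5.70 in controls, at 5.48, 5.46 and 5.65 with BM-MCs and at 5.54 and 5.47 in MHs, so that all groups overlapped. Cox4i2, known as the form induced by low oxygen, was at 0.82, 0.96 and 0.78 in controls, at 0.48, 0.53 and 0.54 with BM-MCs and at 0.65 and 0.58 in MHs. Every BM-MC sample was below every control, with a log2 fold change of -0.34 (SE 0.10, limma adjusted p = 0.23), and it was -0.24 in MHs (limma adjusted p = 0.30). Cox6b2, known as a testis form, was at 1.74, 1.73 and 1.93 with BM-MCs, at 2.41, 2.07 and 2.26 in controls and at 2.33 and 2.01 in MHs. BM-MC samples were below both other groups, with -0.44 against controls (SE 0.13, limma adjusted p = 0.22) and -0.37 against MHs (limma adjusted p = 0.38), or -0.21 without MH replicate 1.

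Cox6a1, Cox7a2 and Cox8a, forms known from liver, were measured. Those known from muscle or testis mostly were not, Cox6b2 being an exception. No member probe was named Cox6b1 or Cox7a1, which were also on the list of isoforms. In MHs the log2 fold change was -0.21 for Cox6a1, -0.16 for Cox7a2, -0.27 for Cox8a and -0.10 for Cox7a2l, and none passed the test. With 1 sample left out Cox7a2 ran from -0.25 without MH replicate 1 to -0.078 without MH replicate 2, with -0.093 without control replicate 3, and Cox8a from -0.41 to -0.12 without the same 2 MH samples. With quantile normalization Cox7a2l was at 0.0091. Of the 10 member probes left out of the test, 2 belong to Cox6a2, the muscle form, and 1 each to Cox7b2, Cox8b and Cox8c. They were well above background on at most 2 of the 7 arrays, and Cox7b2 on 0. Another 2 belong to Ndufa4l2, known as induced by low oxygen, on at most 1 array, and 2 to Cox6c-ps1. The last is that of Ndufs4, an accessory subunit of complex I, which was well above background on 0 of 7 arrays. For these probes there is only this bound, and no fold change is given.

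In complex V, 16 of 17 genes were below 0 in MHs, with a median of -0.35, and all 17 were below 0 with BM-MCs, with a median of -0.24. Without MH replicate 2 the median in MHs was -0.22, and without BM-MC replicate 1 that with BM-MCs was -0.14. Atp5a1, the alpha subunit of the catalytic head, was at 6.84, 6.90 and 7.02 in controls, at 6.47, 6.50 and 6.89 with BM-MCs and at 6.44 and 6.43 in MHs. Both MHs were below all controls, and BM-MC replicate 3 overlapped the controls. The log2 fold change was -0.49 in MHs (SE 0.16, limma adjusted p = 0.18) and -0.30 with BM-MCs (SE 0.15, limma adjusted p = 0.36). Atp5c1, the gamma subunit that turns inside the head, was at 2.67, 2.66 and 3.05 in controls, at 2.43, 2.20 and 2.71 with BM-MCs and at 2.12 and 2.19 in MHs, with a log2 fold change of -0.64 in MHs (limma adjusted p = 0.16). Atp5b, the beta subunit, had the lowest log2 fold change of complex V in MHs, -0.73 (SE 0.31, limma adjusted p = 0.25), but its controls were widely spread, with levels of 2.49, 2.46 and 3.21, and without control replicate 3 it was -0.49.

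The c subunit of the rotor ring is encoded by 3 genes, Atp5g1, Atp5g2 and Atp5g3, which give the same mature protein. Atp5g1 was at 5.51, 5.62 and 5.48 in controls, at 4.93, 5.26 and 5.17 with BM-MCs and at 5.22 and 4.91 in MHs. Every BM-MC and MH sample was below every control. Its log2 fold change with BM-MCs, -0.42, was the lowest of complex V (SE 0.13, limma adjusted p = 0.22), and in MHs it was -0.47 (limma adjusted p = 0.18). The log2 fold change of Atp5g3 was -0.54 in MHs (limma adjusted p = 0.15) and -0.27 with BM-MCs, or -0.17 without control replicate 3. That of Atp5g2 was -0.12 in MHs on its brightest probe, where the groups overlapped, and it was -0.22 and -0.024 when 1 MH sample was left out. The other 3 probes of Atp5g2 gave -0.37, -0.36 and -0.37 in MHs, with both MHs below all controls on each, and none passed the test. Atp5s, which is no subunit proper, had the highest log2 fold change of complex V in MHs, 0.11 (SE 0.15), but -0.039 without MH replicate 1, and its mean levels with BM-MCs and in controls were -0.96 ± 0.11 and -0.94 ± 0.14 (SD, n = 3 each).

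**Figure D3:**
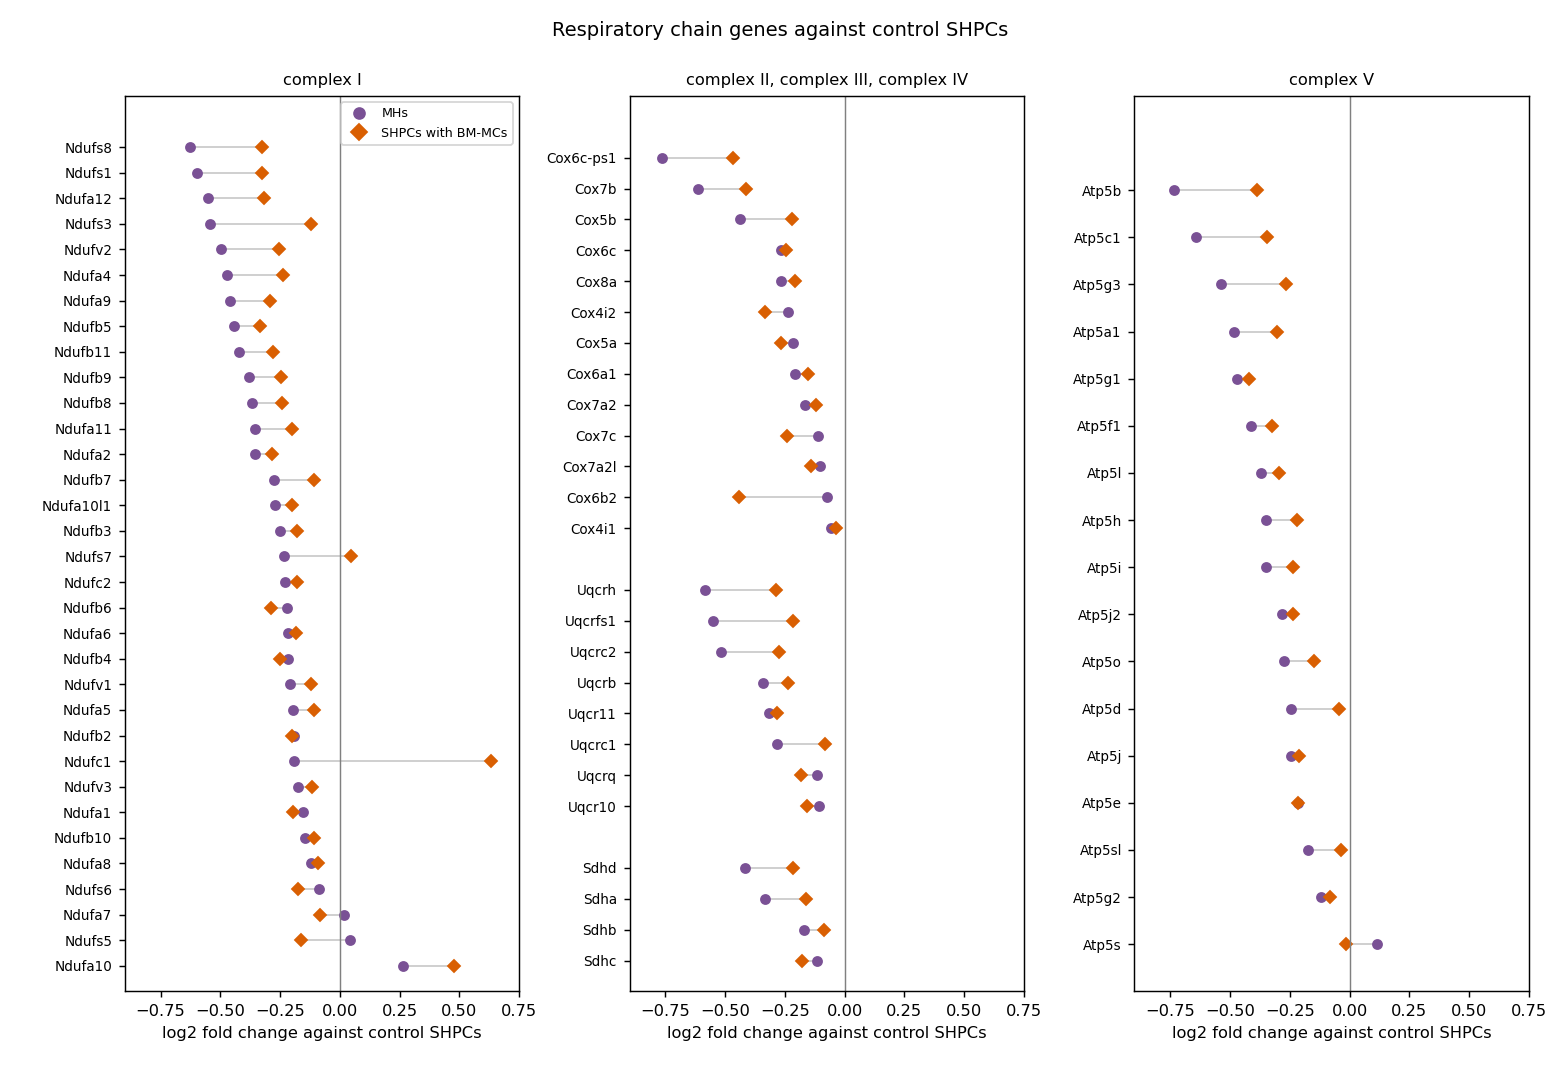
Log2 fold change against control SHPCs (x axis) of 75 of the 76 tested genes (y axis), ordered within each complex by the value in MHs, as circles for MHs and diamonds for SHPCs with BM-MCs, with a line joining both values of a gene. Nearly all points lie left of 0, with 4 genes above 0 in MHs and 3 with BM-MCs, and both comparisons share the same controls.

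The list of these 19 core subunits, which holds core subunits of complex I such as Ndufs1 and Ndufv1, the 4 genes of complex II, Uqcrfs1, Uqcrc1, Uqcrc2, Cox5a, Cox5b and the alpha, beta and gamma subunits of the ATP synthase, had a median log2 fold change of -0.44 in MHs, with all 19 below 0. Of the 19, 16 were below 0 without MH replicate 2, 18 without control replicate 2 or replicate 3, and all 19 without either of the other samples, with medians from -0.49 to -0.40. The other 57 genes had a median of -0.24, with 53 below 0. With BM-MCs the medians were -0.22 and -0.21, and that of the core subunits was -0.14 without control replicate 3. In SHPCs with BM-MCs against MHs the core subunits had a median of 0.22, or 0.14 without BM-MC replicate 3, and the others one of 0.06. No set of arrays holds samples of both these groups, so that group and array set are separated only through the controls. The highest log2 fold changes of each complex in that comparison were Ndufc1 at 0.82, Sdhd at 0.20, Uqcrfs1 at 0.33, Cox6c-ps1 at 0.30 and Atp5b at 0.35, none past the test, and with the array set as a block these 5 turned to -0.90, -0.020, -0.049, -0.24 and -0.39. Ndufs3 was at 0.42, but at 0.045 with that block, and Uqcrh was at 0.30, but at 0.099 with scaling to the median. With 1 sample left out Ndufc1 ran from 0.28 to 1.36, Cox6c-ps1 from -0.046 to 0.64 and Atp5b from 0.17 to 0.59. The lowest were Ndufs5, Sdhc at -0.06, Uqcrq at -0.07, Cox6b2 and Atp5s at -0.13. The sign of 3 of these rests on single samples, since Sdhc was at 0.035 without MH replicate 2, and without MH replicate 1 Uqcrq was at 0.086 and Atp5s at 0.022. Without BM-MC replicate 1 Uqcrq was at 0.0043.

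**Figure D4:**
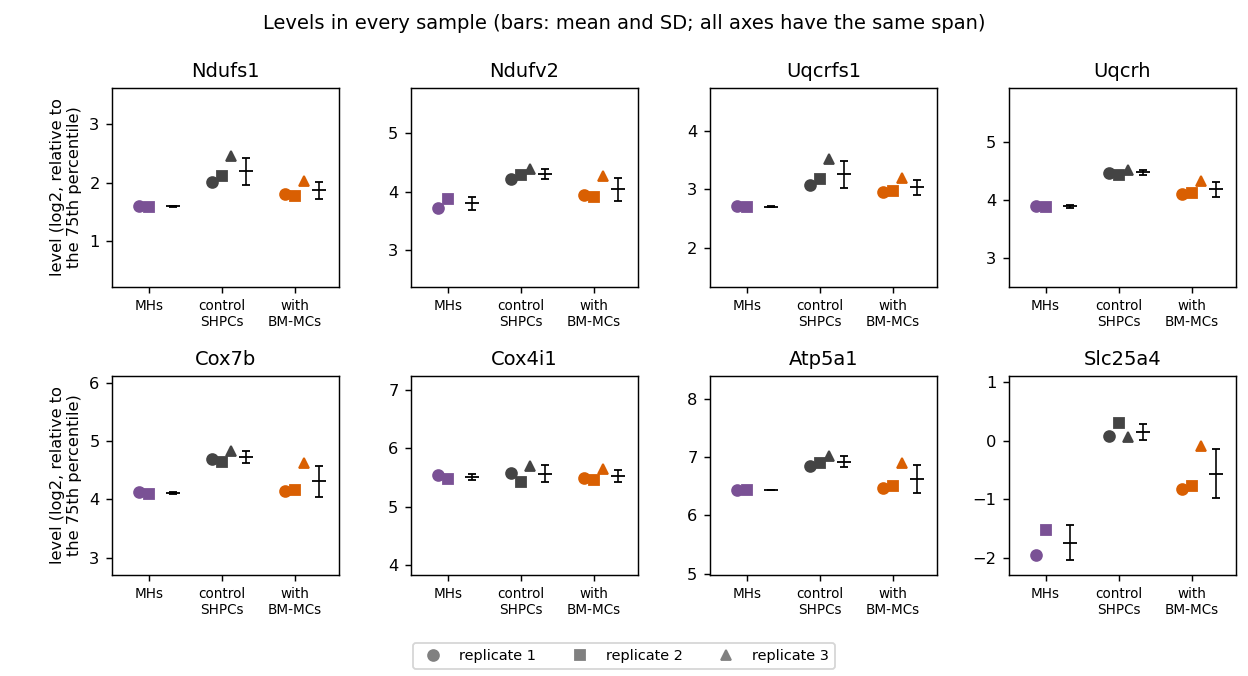
Levels (y axis, log2 relative to the 75th percentile of the array) of 7 respiratory chain genes and of the ADP/ATP carrier gene Slc25a4 in every sample (x axis by group, shape by replicate), with the mean and SD of each group beside the points, on axes of equal span. The MHs lie below all controls for each gene shown except Cox4i1, and BM-MC replicate 3 is the highest of its group for all 8.

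Of the 20 genes with several tested probes, 16 had the same sign on all of them in MHs against control SHPCs and 18 with BM-MCs, with median differences between probes of 0.13 and 0.07. In SHPCs with BM-MCs against MHs it was 10 of 20, with a median difference of 0.14 and a largest of 0.93. The overlapping Atp5h probes both gave -0.35 in MHs and -0.22 with BM-MCs, where the brightest ran from -0.29 to -0.14 with 1 sample left out. Other overlapping pairs differed more in MHs, with -0.44 and -0.16 for the Cox5b probes, which share 33 bases, and -0.37 and -0.25 for those of Atp5l, a membrane subunit of the ATP synthase. The largest gap between probes of a gene against controls was that of Cox7c, a small subunit of complex IV, at 0.53 in MHs, and neither probe passed the test. Uqcrq, a small subunit of complex III, had a probe at base 402 of the transcript and another at base 1434. The first gave -0.18 with BM-MCs, or -0.11 without BM-MC replicate 1, and the second -0.57. The second was at 0.05, -0.23 and -0.82 in controls and at -0.63, -0.91 and -1.17 with BM-MCs, which overlapped, and neither probe passed the test.

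Genes that work with the respiratory chain were taken from lists. Among electron carriers and subunits outside the name rule, such as cytochrome c and the genes of ubiquinone synthesis, 0 of 18 tested genes were called by limma in any comparison, 16 were below 0 in MHs with a median of -0.32, and 13 were below 0 with BM-MCs with a median of -0.11. Cyc1, the cytochrome of complex III, was at 4.68, 4.76 and 4.996 in controls, at 4.49, 4.65 and 4.73 with BM-MCs and at 4.24 and 4.37 in MHs, with a log2 fold change of -0.51 in MHs (limma adjusted p = 0.15). Cycs, cytochrome c itself, had a log2 fold change of -0.20 in both comparisons, with -0.091 and -0.32 in MHs when 1 MH sample was left out. The tricarboxylic acid cycle had medians of -0.19 in MHs and -0.07 with BM-MCs over 18 tested genes, of which 0 were called, and Cs, the citrate synthase that is often used as a measure of mitochondrial mass, was at 1.61, 1.60 and 1.40 in controls, at 1.49, 1.25 and 1.39 with BM-MCs and at 1.58 and 1.62 in MHs, so that the groups overlapped. Assembly factors had medians of -0.10 and -0.12 over 43 tested genes, with 0 called.

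Regulators of mitochondrial biogenesis lay near 0, with medians of 0.00 in MHs and -0.07 with BM-MCs over 23 tested genes and 0 called. Nrf1, nuclear respiratory factor 1, was at -3.87, -3.87 and -3.96 in controls, at -4.09, -3.96 and -4.08 with BM-MCs and at -3.71 and -3.90 in MHs. Gabpa, the subunit of GABP that binds DNA, was at -1.51, -1.45 and -1.56 in controls, at -1.68, -1.64 and -1.65 with BM-MCs and at -1.57 and -1.63 in MHs. For both genes every BM-MC sample was below every control, for Nrf1 by a narrow margin, with -3.962 in BM-MC replicate 2 and -3.956 in control replicate 3. Of the 23 regulators, 5 had all BM-MC samples below all controls, these being Nrf1, Gabpa, Polg2, Mterf3 and Mterf4, and 3 had them above, beside 11.7% and 13.1% of all tested probes. Tfam, which packs mitochondrial DNA, was at 1.03, 1.17 and 1.21 in controls, at 0.90, 0.96 and 1.09 with BM-MCs and at 1.15 and 1.12 in MHs, so that the groups overlapped. Ppargc1a, the coactivator of the programme, was faint and spread, at -4.25, -3.92 and -2.90 in controls and -3.65, -3.79 and -2.17 with BM-MCs. Of the genes of hypoxia and glycolysis, 14 were tested with medians of -0.09 and -0.05 and 0 called. Of the inhibitor and dimer proteins of the ATP synthase 2 were tested and 0 called, with Usmg5, a dimer protein, at a log2 fold change of -0.50 in MHs.

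The only called gene of these lists was Slc25a4, a carrier that exchanges ADP for ATP across the inner membrane, among 25 tested genes of carriers, import and outer membrane, whose medians were -0.13 in MHs and -0.17 with BM-MCs. It was at 0.08, 0.30 and 0.07 in controls, at -0.82, -0.78 and -0.08 with BM-MCs and at -1.96 and -1.53 in MHs, so that the 3 groups did not overlap. In MHs its log2 fold change was -1.90 (SE 0.25, limma adjusted p = 0.017), in a comparison where limma called 0.917% of all tested probes lower and 0.216% higher. It no longer passed without a filter on dim probes (limma adjusted p = 0.059), with the replicate number as a block (limma adjusted p = 0.058), nor when any 1 of the MH samples or of control SHPC replicates 1 and 2 was left out, with an adjusted p from limma between 0.059 and 0.16 and a log2 fold change between -2.11 and -1.68. With BM-MCs the log2 fold change was -0.71 (limma adjusted p = 0.23). Slc25a5, the related carrier of most tissues, had a log2 fold change of -0.43 in MHs (limma adjusted p = 0.16).

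**Figure D5:**
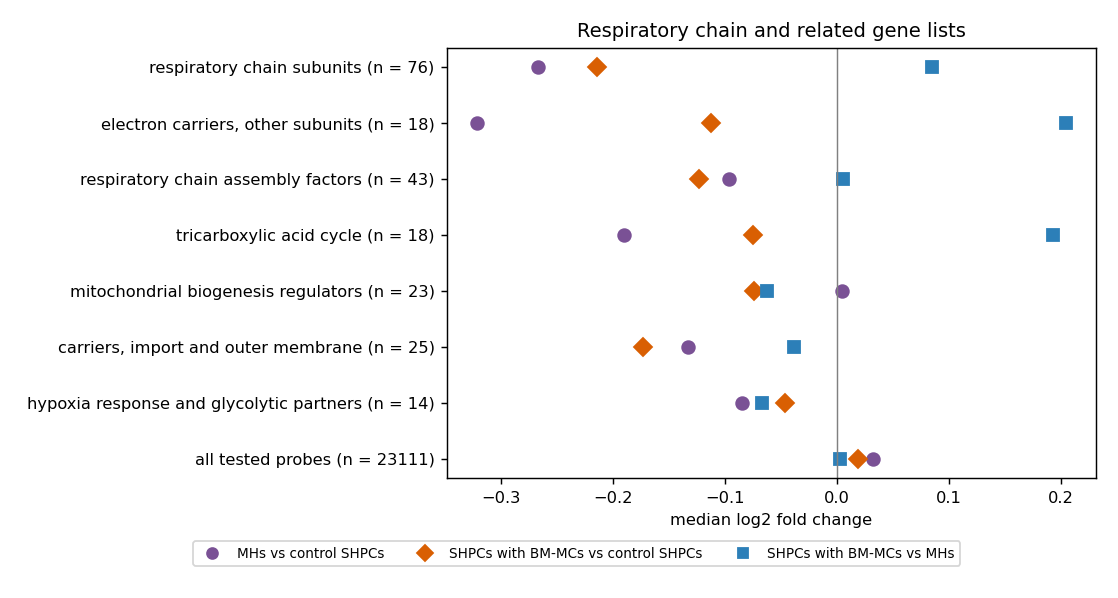
Median log2 fold change (x axis) of the tested respiratory chain genes, of 6 related gene lists and of all tested probes (y axis, number of genes or probes in brackets) in 3 comparisons, by colour and shape. The respiratory chain is at -0.27 in MHs and -0.21 with BM-MCs against control SHPCs, the regulators of biogenesis at 0.00 and -0.07, and all tested probes at 0.03 and 0.02.

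Markers of cell types were read as summed linear levels relative to the 75th percentile. All 16 hepatocyte markers were well above background, with sums from 1265 to 1486 in controls, from 1217 to 1391 with BM-MCs and from 1333 to 1490 in MHs, so that the sums overlapped. Linear sums weigh the brightest markers most, and single markers moved in both directions. Apoa2 and Cyp2e1 had log2 fold changes of 1.68 and 1.23 in MHs, while Tat and Apoa1 were at -1.04 and -0.73, none past the test. All 11 macrophage markers were above background, with sums from 48.7 to 70.9 in controls, from 60.6 to 85.8 with BM-MCs and from 95.1 to 99.3 in MHs. The 7 erythroid markers on the array summed to between 15.1 and 21.1 with BM-MCs, below all controls at 32.03 to 108, the highest being control SHPC replicate 3, and to 19.8 and 39.9 in MHs. Hba-a1 and Hbb-b1 had log2 fold changes of -1.46 and -1.63 with BM-MCs, while Slc4a1 was at 0.17, none past the test. Of 7 granulocyte markers 3 were tested, with sums from 0.363 to 0.481 with BM-MCs, below all controls at 1.13 to 1.57, and of 0.394 and 1.51 in MHs. Of 9 biliary markers 7 were tested, with sums from 0.332 to 0.384 in MHs, below controls at 0.485 to 0.523, and from 0.446 to 0.586 with BM-MCs, and Spp1 was not above background. Stellate cell and fibroblast markers, 9 of 10 tested, summed to 8.73 and 9.16 in MHs, above controls at 7.48 to 8.11, and to between 7.43 and 11.4 with BM-MCs. Of these, Reln and Lrat had log2 fold changes of 1.47 and 0.63 in MHs, while Col1a1 and Dcn were at -1.11 and -1.12, none past the test. The 8 endothelial markers on the array summed to between 18.7 and 19.9 in controls, 19.9 and 21.4 with BM-MCs and 19.8 and 23.4 in MHs. For lymphocytes 3 and for muscle 4 markers were tested, with sums of at most 1.17 and 0.341. The part of these shifts in the respiratory chain medians was not tested. Without control SHPC replicate 3 the median of the 76 genes was -0.17 with BM-MCs and -0.23 in MHs.

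Promoters were searched for letters of sites known from genes of oxidative phosphorylation, because most members lay on the same side of the controls. The 250 bases before the transcription start (RefSeq, GRCr8) were found for 69 of the 82 genes. GCATGCGC, from the site of nuclear respiratory factor 1, was present on either strand in 9 of 69 (13%), beside 2.38% of 27457 promoters of all genes. A promoter counts once however many matches it holds, and matches on opposite strands can overlap. CCGGAAG, from the site of ETS factors such as GABP, was present in 18 of 69 (26.1%), beside 7.74% of all promoters. AAGATGGC, from the site of YY1, was present in 2 of 69 (2.9%), beside 1.69%, and CCAAT in 21 of 69 (30.4%), beside 34.3%. The members' promoters had a median GC content of 56%, against 52% for all, and whether that accounts for the matches was not tested. The matches are descriptions of letters and not of binding.

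3 promoters are shown with the matches of the first 3 motifs in capitals, that of Uqcrh for its low p, that of Uqcrc2 for 2 matches of CCGGAAG and that of Ndufa11, an accessory subunit of complex I, for overlapping GCATGCGC matches on both strands. They lie at chr5:134790883-134791132 on the minus strand, chr1:184598990-184599239 on the plus strand and chr9:1637364-1637613 on the plus strand of GRCr8.
Uqcrh promoter: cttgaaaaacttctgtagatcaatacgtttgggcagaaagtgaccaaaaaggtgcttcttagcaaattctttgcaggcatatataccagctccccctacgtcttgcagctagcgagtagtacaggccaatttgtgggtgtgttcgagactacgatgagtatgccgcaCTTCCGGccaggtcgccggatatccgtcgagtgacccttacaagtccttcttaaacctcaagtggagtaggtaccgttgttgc
Uqcrc2 promoter: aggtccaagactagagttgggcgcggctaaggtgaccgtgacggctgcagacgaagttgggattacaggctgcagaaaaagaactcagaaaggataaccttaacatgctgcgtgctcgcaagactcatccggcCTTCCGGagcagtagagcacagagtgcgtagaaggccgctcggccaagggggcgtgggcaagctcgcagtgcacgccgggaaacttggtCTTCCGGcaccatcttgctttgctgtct
Ndufa11 promoter: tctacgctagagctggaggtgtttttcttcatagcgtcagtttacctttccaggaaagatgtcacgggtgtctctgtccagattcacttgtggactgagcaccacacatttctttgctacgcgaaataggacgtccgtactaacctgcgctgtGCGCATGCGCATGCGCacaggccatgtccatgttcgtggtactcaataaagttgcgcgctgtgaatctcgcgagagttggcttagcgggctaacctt
Ndufa11 had a log2 fold change of -0.36 in MHs (limma adjusted p = 0.20) and -0.20 with BM-MCs.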

How the data were processed

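Laser-microdissected cells of 8 samples were hybridised to 1-colour Agilent rat arrays. Per the labels, Agilent Feature Extraction 10.7 was used. The deposited values are the scanner's processed signal, an intensity with background already subtracted, and were not scaled between arrays. For control SHPC replicate 2 only 20903 of 62976 features were in the scanner output, so all signals were read from the deposited value table, whose values match the scanner's, and background marks of this array were not used. Signals were set to log2 minus the 75th percentile of the array, outlier spots were dropped and repeated spots averaged per probe. The filter kept probes that were above background on 3 or more of 7 arrays (23111 of 45598).

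limma 3.58.1 (R 4.3.3) compared SHPCs with and without BM-MCs in their 6 samples, and either with MHs in all 8, with Benjamini-Hochberg adjustment over all probes and a threshold of 0.05. The fit was tested on simulated data. Lists were described by counts and medians, without a test. The members and lists were chosen with earlier results of these data known. Genes named were those past the threshold, the highest and lowest of each complex, core subunits, isoforms and members without signal. The number of arrays limits the precision. Alternatives covered scaling, background, filters, the variance model, array set, replicate block, samples left out, samples in the fit and the test. The comparison within 1 array set, and the count of groups that do not overlap under other scalings, were added after seeing the data. Gene names were matched to GRCr8 by accession. A member gene and a marker gene are counted but not reported by name here.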

Additional observations from a re-analysis of the deposited data

How the results depend on the processing

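No member probe passed the adjusted threshold of limma in any alternative but those named here. The count of member probes called lower in MHs against control SHPCs was 0, and 1, Uqcrh, with an intensity trend and 1 with array weights. With BM-MCs it was 0, and 18 of 99 by the methods' t-test unadjusted, which called 6.82% of all tested probes lower. The median of the 76 genes with BM-MCs, -0.21, was -0.41 with scaling to the median and -0.094 with quantile normalization, and from -0.28 to -0.15 with 1 sample left out. In MHs it was -0.27, and from -0.38 without MH replicate 1 to -0.21 with 1 sample left out. For SHPCs with BM-MCs against MHs it was 0.08, but -0.11 with scaling to the median, where all tested probes were at -0.19, and -0.053 with the array set as a block, and from 0.01 to 0.16 with 1 sample left out. Counts of calls stayed between 0 and 0 in all 3 comparisons with 1 sample left out. The cause was not tested.

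Deviations from the group mean had correlations of 0.13, 0.08 and 0.17 between same-numbered control and BM-MC samples. For control and BM-MC samples of different numbers they ran from -0.15 to 0.08. Between same-numbered MHs and controls they were 0.05 and -0.04, but the deviations of the 2 MH samples are mirror images, so that these values say little. With the number as a replicate block the medians were -0.21 with BM-MCs, -0.21 in MHs and 0.05 for SHPCs with BM-MCs against MHs, and 0 member probes were called. Under this block Slc25a4 had a limma adjusted p = 0.058 in MHs.

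Single genes turned sign as follows. With BM-MCs, Ndufc1 was at -0.52 with the array set as a block and -0.52 within 1 array set. In MHs, with 1 sample left out, Ndufa10 ran from -0.22 to 0.75, Ndufv1 from -0.44 to 0.023, Sdhb from -0.36 to 0.011 and Atp5s from -0.039 to 0.27, and Cox7a2l was at 0.0091 with quantile normalization. For SHPCs with BM-MCs against MHs, the array set as a block gave -0.90 for Ndufc1, -0.020 for Sdhd, -0.049 for Uqcrfs1, -0.24 for Cox6c-ps1 and -0.39 for Atp5b. In that comparison, with 1 sample left out, Cox6c-ps1 ran from -0.046 to 0.64, Sdhc from -0.16 to 0.035, Uqcrq from -0.22 to 0.086 and Atp5s from -0.28 to 0.022, and Uqcrq was at 0.020 with quantile normalization. With 1 sample left out, the log2 fold change moved by over 1.5 times for 16 of the 41 genes given in MHs, among them Ndufs7 (-0.38 to -0.084), Cox6c-ps1 (-1.11 to -0.42) and Sdha (-0.48 to -0.19), for 12 of 24 with BM-MCs and for 8 of 13 in SHPCs with BM-MCs against MHs.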
